A study of Mus musculus with 4 samples.

Results

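Regulator of G protein signalling genes encode proteins that speed the hydrolysis of GTP on G protein alpha subunits and thereby shorten the signal of receptors such as chemokine receptors. In T cells, members of the family set how long a cell responds to chemokines and to sphingosine 1-phosphate. Some members, Rgs1, Rgs2 and Rgs16 among them, are induced when lymphocytes are stimulated, while others are made at a steady level.

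The genes described are Rgs1, Rgs2, Rgs16, Rgs3, Rgs10 and Rgs19, 6 of the 33696 genes in the matrices. They were chosen by their measured levels in these same cells, namely the levels per tissue, in cells that hold particular marker genes and by clone size. Those levels are therefore given as descriptions with no test. The brain cells came from C57BL/6 mice, wild type by the labels, 60 days after the induction of experimental autoimmune encephalomyelitis (EAE), an immune disease of the central nervous system that serves as a model of multiple sclerosis. The spleen cells came from mice of the same strain, genotype and day. Both tissues were sorted for CD4+ CD44+ GITR- conventional T cells (Tconv), which are antigen-experienced helper cells without GITR, a surface receptor that is high on regulatory T cells. The labels do not give the immunogen, the number of animals or whether animals were pooled. There was no day without disease and no untreated mouse, so each comparison is between tissues or between cells of 1 library.

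Each tissue had 1 RNA library and 1 T cell receptor library, made with a 5' droplet kit after 18718 brain and 38000 spleen cells were loaded. With 1 library a tissue there is no spread between replicates and no test. Intervals are 95% intervals for counting error only. After filtering, 3934 brain cells with 40957509 unique molecular identifiers (UMIs) and 7987 spleen cells with 60386930 UMIs were used, with medians of 9836.5 UMIs a cell in brain and 7190 in spleen. A paired receptor was read in 79.3% of brain cells and 84.3% of spleen cells. The 6 genes for the T cell receptor complex and CD4 differed by less than 1.5-fold between tissues, and none of 8 myeloid genes reached 10 CPM, UMIs of a gene per 1000000 UMIs, in either tissue. Barcodes with 3 or more of those 8 genes had been left out beforehand, so their low levels follow in part from the filter. Of 6 B cell genes, filtered alike, only Ighm reached 10 CPM, with 101 CPM in brain and 281 CPM in spleen. Foxp3, the regulator that defines regulatory T cells, was nevertheless detected in 264 brain and 951 spleen cells. Both libraries held 31 barcodes in common, and 15 of these were kept in both.

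Levels are CPM over the summed cells of a group. A gene was counted as higher or lower when its level differed by at least 1.5-fold and it reached 10 CPM in either group. By that rule 845 of 8636 genes, or 9.78%, were higher in brain and 750, or 8.68%, were lower.

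Of the 6 genes, Rgs1, Rgs2 and Rgs16 were higher in brain than in spleen, and Rgs3, Rgs10 and Rgs19 were neither higher nor lower. Rgs1, a regulator known for limiting lymphocyte migration towards chemokines, stood at 767 CPM in brain cells and at 73.5 CPM in spleen cells, 10.4 times the spleen level (10.1 to 10.8). Rgs2, which acts mainly on alpha subunits of the Gq class, stood at 619 CPM in brain cells and at 40.7 CPM in spleen cells, 15.2 times that level (14.6 to 15.9). Rgs16, a small regulator of Gi and Gq signals, stood at 67.5 CPM in brain cells and at 8.03 CPM in spleen cells, 8.41 times that level (7.63 to 9.28). These 3 ratios ranked 45, 25 and 63 of the 8636 genes measured. The ranking is the property for which the genes were picked and carries no weight of its own.

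The other 3 genes had close levels in the tissues. Rgs3, which also binds Gi and Gq subunits, had 58.3 CPM in brain cells, against 54.2 CPM in spleen cells, for a ratio of 1.08 (1.02 to 1.13). Rgs10, a regulator of Gi subunits best studied in microglia and platelets, had 196 CPM in brain cells, against 215 CPM in spleen cells, for a ratio of 0.913 (0.888 to 0.939). Rgs19, also called GAIP, had 78.3 CPM in brain cells, against 95.3 CPM in spleen cells, for a ratio of 0.822 (0.787 to 0.858). Their intervals leave out 1, but each lies well inside the 1.5-fold bounds.

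The share of cells with at least 1 UMI separated Rgs16 from Rgs1 and Rgs2. Rgs1 was detected in 78.1% of brain cells and 24.9% of spleen cells, and Rgs2 in 71.3% of brain cells and 18.5% of spleen cells. Rgs16 was detected in 14.6% of brain cells and 2.78% of spleen cells. To take out the difference in depth, each cell was thinned to 3000 UMIs, which left out 226 shallower brain cells and 533 spleen cells. Thinned, the shares were 62.2% in brain and 14.8% in spleen for Rgs1, 54.3% in brain and 9.66% in spleen for Rgs2, and 8.71% in brain and 1.54% in spleen for Rgs16. The thinned shares of Rgs3 (16.0% of brain cells, 13.8% of spleen cells), Rgs10 (39.2% and, in spleen, 40.0%) and Rgs19 (19.8% and, in spleen, 24.95%) lay much closer together. Rgs1, Rgs2 and Rgs16 were all 3 present in 4.56% of thinned brain cells and 0.0268% of thinned spleen cells, and all 3 were undetected in 20.6% of brain cells and 76.5% of spleen cells.

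**Figure D1:**
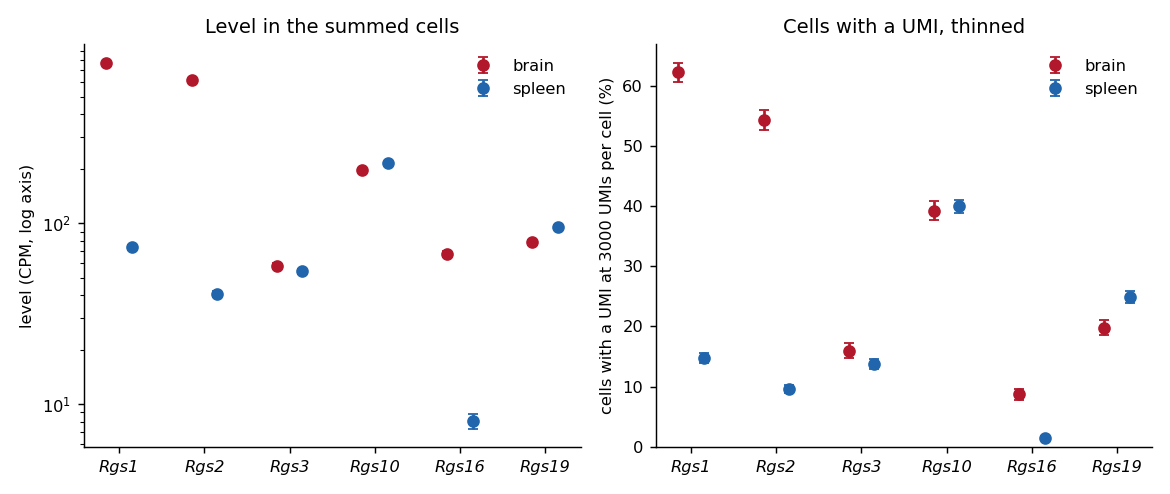
Level of each gene in the summed cells (left, CPM on a log axis) and the percentage of cells with a UMI after thinning to 3000 UMIs a cell (right), for the 1 brain and the 1 spleen library. Bars are 95% counting intervals; Rgs1, Rgs2 and Rgs16 stand apart between tissues, and Rgs16 was found in 8.71% of thinned brain cells.

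Free RNA in droplets can give a UMI in cells that do not make a gene. Among 167 spleen barcodes with B cell genes, at a median of 5477 UMIs, Rgs1 was found in 4.79%, Rgs2 in 14.4%, Rgs3 in 10.2% and Rgs10 in 14.97%. Rgs16 was found in 0 of these 167, which allows a share of up to 1.80%. Rgs19 was found in 44.3% of them, near its 47.1% of kept spleen T cells, and Rgs2 lay near its 18.5%, so neither spleen share can be read apart from that background. B cells may also make these genes themselves, which was not tested. Brain had only 4 such barcodes, with Rgs1 in 3 and Rgs2 in 2 of them. The 26 brain barcodes left out for myeloid genes had Rgs1 in 88.5%, Rgs2 in 92.3% and the T cell gene Cd3e in 92.3%, so they were no group without T cell RNA. The part of free RNA in the brain shares of Rgs1 and Rgs2 was therefore not tested. For Rgs16 in brain, cells with the invariant receptor described below served instead, and Rgs16 was found in 1 of 122 of them (0.820%), at a median of 10385.5 UMIs.

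The UMIs of Rgs16 were held by few cells. In brain, the 393 cells with most Rgs16 held 93.4% of its UMIs, and 65 cells (1.65%) held 50% of them. For Rgs1 the same number of top cells held 45.1% of the UMIs, and for Rgs2 48.2%. The corresponding shares were 47.9% for Rgs3, 38.7% for Rgs10 and 39.0% for Rgs19. A lower total makes a gene look more concentrated, but Rgs3, with 2386 brain UMIs against 2765 for Rgs16, was spread over far more cells: 418 cells held 50% of its UMIs.

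Promoter sequence is shown for Rgs2 and Rgs16, both higher in brain, since they share a pair of motifs that no other of the 8 stretches read had. RefSeq sequence of the mouse build GRCm38.p6 covered 8 start sites of Rgs2, Rgs3, Rgs10, Rgs16 and Rgs19. It held none for Rgs1, the other gene higher in brain, so Rgs1 could not be read. Each stretch is the 250 bases before the start, 5′ to 3′, and capitals mark CCAAT (or ATTGG, its reverse) and TAAAAG.
Rgs2, chr1:144004150-144004399, minus strand: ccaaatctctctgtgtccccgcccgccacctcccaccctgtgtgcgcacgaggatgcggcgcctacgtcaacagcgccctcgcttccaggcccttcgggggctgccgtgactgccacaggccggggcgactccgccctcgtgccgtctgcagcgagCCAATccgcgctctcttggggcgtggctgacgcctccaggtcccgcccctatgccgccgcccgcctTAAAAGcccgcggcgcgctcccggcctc
Rgs16, chr1:153740103-153740352, plus strand: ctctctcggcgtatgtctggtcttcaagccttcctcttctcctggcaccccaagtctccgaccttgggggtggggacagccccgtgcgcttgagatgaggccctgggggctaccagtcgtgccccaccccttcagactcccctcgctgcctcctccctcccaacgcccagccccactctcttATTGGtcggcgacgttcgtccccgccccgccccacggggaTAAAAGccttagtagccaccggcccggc

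In both stretches TAAAAG began 28 bases before the start. The CCAAT pair began 94 bases before it in Rgs2 and 68 bases before it in Rgs16. Both motifs were picked after these sequences had been read, so the match is a description of them. Read on both strands, CCAAT was in 33.8% of 32851 promoters of 27025 genes, TAAAAG in 13.6%, and the pair in 4.65%. The motifs TGANTCA of AP-1, TGACGTCA of the cyclic AMP response element, AAAGGTCA of NR4A factors and the E-box CACGTG were in none of the 8 stretches. They were in 6.75%, 1.55%, 1.34% and 6.02% of all promoters. No motif is shown to be used in these cells. On chromosome 1, Rgs2, Rgs13, Rgs1, Rgs21 and Rgs18 follow one another as neighbouring genes, while Rgs16 lies next to Rgs8. Of those other neighbours, Rgs13 and Rgs21 had 0 UMIs in both tissues, and Rgs8 and Rgs18 stayed under 1 CPM.

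Brain cells carried more RNA of immediate early genes. These and heat shock genes also rise when tissue is digested and cells are sorted. The summed level of a list of 21 such genes had a median of 15756 CPM per brain cell against 4864 CPM per spleen cell. Of the 18 that reached 10 CPM, 14 were higher in brain. Rgs1 and Rgs2 moved with that content. With brain cells ordered by stress content and divided into 4 equal groups, from low to high, Rgs2 had 263, 578, 759 and 816 CPM, and Rgs1 503, 779, 829 and 911 CPM. Rgs16 had 42.2, 66.2, 63.5 and 94.5 CPM. Rgs3, Rgs10 and Rgs19 showed no such order, Rgs19 having 79.1, 79.9, 79.4 and 75.1 CPM.

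**Figure D2:**
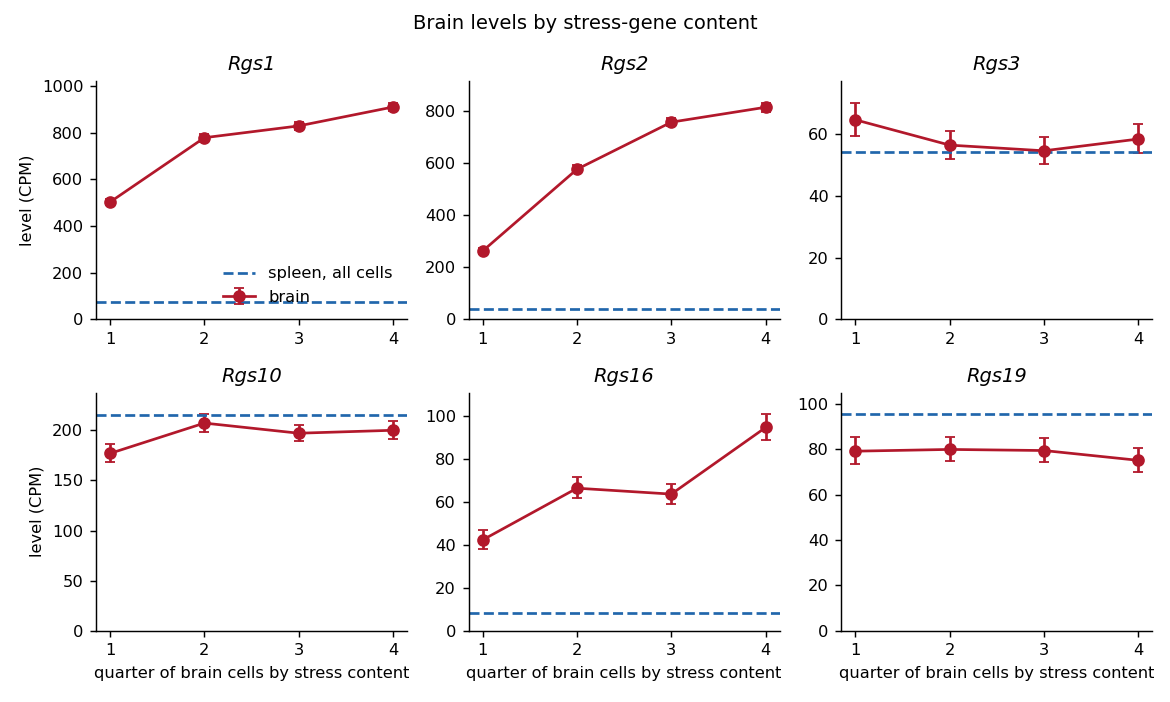
Level of each gene (CPM) in 4 equal groups of brain cells ordered by stress-gene content, from low to high, with the level in all spleen cells as a dashed line. Bars are 95% counting intervals; Rgs1 at 503 CPM and Rgs2 at 263 CPM in the lowest group were above the spleen lines.

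Brain cells of low stress content were still far above spleen cells for these 3 genes. Restricted to cells at or below the 95th percentile of spleen cells, 762 brain cells and 7587 spleen cells, Rgs1 had 459.7 CPM in brain cells, against 73.8 CPM in spleen cells, for a ratio of 6.23 (5.94 to 6.53). Rgs2 had 243 CPM in those brain cells, against 40.3 CPM in the spleen cells, for a ratio of 6.03 (5.65 to 6.43). Rgs16 had 37.6 CPM in brain cells, against 6.00 CPM in spleen cells, for a ratio of 6.26 (5.29 to 7.39). For Rgs1 and Rgs2 these ratios are below those of all cells, 10.4 and 15.2, by over 1.5 times. In these cells 12.6% of genes were higher in brain, and median stress content was 6060 CPM in brain and 4763 CPM in spleen. The cells were not matched for a list of 10 early genes of T cell receptor stimulation, Nr4a1 and Cd69 among them. Its median content was 811 CPM in these brain cells and 281 CPM in these spleen cells, against 1439 and 291 CPM in all cells. Restricted further to cells at or below the spleen median, where content was 3489 CPM in brain and 3770 CPM in spleen, the ratios were 4.68 for Rgs1, 4.53 for Rgs2 and 4.81 for Rgs16. That group held 257 brain cells, and the list of early stimulation genes had medians of 814 CPM in brain and 245 CPM in spleen. The part of those genes in the ratios was not tested.

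For Rgs16 the ratio was smaller at the other end. Among cells above the 95th percentile it had 73.2 CPM in 3172 brain cells and 42.0 CPM in 400 spleen cells, a ratio of 1.74 (1.47 to 2.08). The ratios of Rgs1 and Rgs2 in those same cells were 12.1 and 14.4. The spleen cells of high stress content thus held more Rgs16 than the other spleen cells, with 143 of the 485 spleen UMIs, while Rgs1 had 68.1 CPM in them and 73.8 CPM in the rest. The part of stress content in the tissue ratios was not tested.

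Cells were next grouped by marker genes, counting a cell as positive with 1 UMI or more. Klrc1 and Klrd1 encode the NKG2A and CD94 chains of an inhibitory receptor, Il17a and Ifng are the signature cytokines of Th17 and Th1 cells, Cxcr5 is the chemokine receptor of follicular helper cells, and Foxp3 marks regulatory T cells. A cell could fall in several groups. The other genes listed for each kind were mostly higher in the marked brain cells, as were 6 of 6 Th17 genes in Il17a cells and 5 of 5 regulatory genes in Foxp3 cells.

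Rgs16 differed most by these markers. In the 902 brain cells with Klrc1 or Klrd1 it had 121 CPM, against 47.9 CPM in the 3032 without, a ratio of 2.52 (2.34 to 2.72). It was the only one of the 6 genes counted as higher there, where 2.13% of all genes were higher and 2.06% lower. In thinned cells Rgs3 was counted too, with a ratio of 1.68, against 1.33 in all cells. Rgs1 had 769 CPM with the receptor genes and 766 CPM without, and Rgs2 737 CPM with and 576 CPM without.

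In the 1724 brain cells with Ifng, Rgs16 had 100.4 CPM, against 36.5 CPM in the 2210 without, a ratio of 2.75 (2.53 to 2.99). Rgs3 was the other gene counted, with 75.7 CPM in Ifng cells and 41.9 CPM in the rest, a ratio of 1.81 (1.66 to 1.97), or 1.49 in thinned cells, where it was no longer counted. Of all genes 3.9% were higher and 3.71% lower. Rgs1 had 916 CPM with Ifng and 626 CPM without, a ratio of 1.46 that fell short of the bound. Rgs10 went the other way, with 159 CPM in Ifng cells and 231 CPM in the rest, a ratio of 0.687 that also fell short. At low stress content both passed the bound, with 1.65 for Rgs1 and 0.610 for Rgs10, as did Rgs1 against cells of no marker, at 1.61, and Rgs10 in thinned cells, at 0.642.

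Both marks together went with more Rgs16 than either alone. It had 160.4 CPM in 557 brain cells with Ifng and an NKG2 receptor gene, 66.7 CPM in 1167 with Ifng only, 47.7 CPM in 345 with a receptor gene only and 34.0 CPM in 1865 with neither. Depth and stress content also differed among these cells, with medians of 17625 CPM of stress genes in cells with both and 13987 CPM in cells with neither, whose part in these levels was not tested.

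In the 364 brain cells with Il17a, Rgs1, Rgs10 and Rgs16 were counted as higher, where 6.36% of all genes were higher and 5.47% lower. Rgs1 had 1163 CPM in Il17a cells and 713 CPM in the rest, a ratio of 1.63 (1.58 to 1.68). Rgs10 had 293 CPM in Il17a cells and 183 CPM in the rest, a ratio of 1.60 (1.51 to 1.69), but the call was lost in thinned cells, at 1.49, and against cells of no marker, at 1.37. Rgs16 had 99.8 CPM in Il17a cells and 63.2 CPM in the rest, a ratio of 1.58 (1.43 to 1.74). Il17a cells had the highest median stress content of the kinds compared, 19841 CPM, against 15386 CPM in the other brain cells. At or below the median stress content of brain cells the ratios were 1.53 for Rgs1, 1.65 for Rgs10 and 2.48 for Rgs16, all still counted.

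The cytokines could be separated. Rgs10 had 302 CPM in 103 brain cells with both Il17a and Ifng, 288 CPM in 261 with Il17a only, 145 CPM in 1621 with Ifng only and 222 CPM in 1949 with neither. Rgs3 had 62.8, 45.5, 76.9 and 41.2 CPM in the same order of cells. Rgs10 was thus high where Il17a was found, and Rgs3 was highest where Ifng alone was found. Rgs16 had 124, 86.1, 98.1 and 27.9 CPM, and Rgs1 1263, 1107, 882 and 543 CPM, so both were lowest in cells with neither cytokine.

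In the 164 brain cells with Cxcr5, Rgs16 had 115 CPM, against 65.4 CPM in the other cells, a ratio of 1.76 (1.52 to 2.03), while 7.44% of all genes were higher. That ratio was 1.07 in thinned cells, where the call was lost. Markers were read after thinning too, which left 66 cells with Cxcr5. The call held with at least 2 UMIs of Cxcr5, at 1.99, and at low stress content, at 2.40. Rgs1 was lower, with 376 CPM in Cxcr5 cells and 784 CPM in the rest, a ratio of 0.479 (0.443 to 0.518), where 6.62% of genes were lower. In the 264 brain cells with Foxp3 none of the 6 genes was counted, against 5.81% of genes higher and 4.78% lower. Rgs1 had 573 CPM in them and 782 CPM in the rest, and Rgs16 85.9 CPM in them and 66.1 CPM in the rest. The Rgs1 ratio of 0.733 was 0.590 in thinned cells, and the Rgs3 ratio of 0.681 was 0.622 in thinned cells and 0.599 at low stress content, all past the bound. The Rgs16 ratio in Foxp3 cells was 1.30 in all cells and 0.762 in cells of low stress content.

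Brain cells with none of the 6 marker genes had little Rgs16. In these 1341 cells it had 17.7 CPM, against 87.9 CPM in the 2593 with any marker, a ratio of 0.202 (0.175 to 0.232). Rgs3 was lower as well, with 38.6 CPM in them and 66.3 CPM in the others, and 4.55% of genes were lower. Rgs2 had 589 CPM in them and 631 CPM in the others, and Rgs1 568 CPM in them and 848 CPM in the others, neither past the bound. Median stress content was 13552 CPM in cells of no marker and 17037 CPM in the others, with median depths of 8938 and 10319 UMIs. Set against cells of no marker, the Rgs16 ratio was 6.81 with an NKG2 receptor gene, 5.62 with Il17a, 5.66 with Ifng, 6.48 with Cxcr5 and 4.84 with Foxp3. Seen from the gene, 38.9% of the 576 brain cells with a Rgs16 UMI had an NKG2 receptor gene, against 20.2% of those without, and 14.6% had no marker, against 37.4%. In thinned cells the receptor gene shares were 30.0% with Rgs16 and 13.4% without, and the shares of no marker were 26.3% with and 51.5% without.

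Some of the Rgs genes were found in the same brain cells. Rgs16 had 76.4 CPM in the 3071 brain cells with a Rgs1 UMI and 22.8 CPM in the 863 without, and Rgs2 had 684 CPM in the same cells with Rgs1 and 296 CPM in those without. Cells with a Rgs1 UMI had a higher median stress content, 16863 CPM against 12027 CPM. Rgs3 had 94.1 CPM in brain cells with Rgs16 and 50.8 CPM in those without, a ratio of 1.85. Rgs10 and Rgs19 showed no such difference past the bound, with ratios of 1.12 and 0.857 between brain cells with and without Rgs16.

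In 122 brain cells with the invariant receptor TRAV11-TRAJ18 of natural killer T cells, Rgs16 had 2 UMIs, or 1.53 CPM against 69.7 CPM in the rest. Rgs10 was lower too, at 50.4 CPM in them and 201 CPM in the rest, a ratio of 0.251 (0.194 to 0.319), where 12.3% of genes were lower. Rgs3 was higher, at 102 CPM in them and 56.8 CPM in the rest, where 8.84% of genes were higher. Rgs1 and Rgs2 were neither, with 749 and 839 CPM in invariant cells and 767 and 612 CPM in the rest.

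Spleen cells gave another order of kinds for Rgs16. Its spleen level was highest in the 1013 cells with Cxcr5, 30.8 CPM against 4.22 CPM in the rest, a ratio of 7.30 (6.08 to 8.77), where 5.91% of genes were higher. In 951 spleen cells with Foxp3 it had 20.7 CPM, against 6.41 CPM in the rest, where 6.27% were higher, and in 610 with Ifng 15.2 CPM, against 7.37 CPM in the rest, where 10.7% were higher. In the 1174 spleen cells with an NKG2 receptor gene it had 9 UMIs, or 0.942 CPM, against 9.36 CPM in the rest. Of the 222 spleen cells with a Rgs16 UMI, 43.7% had Cxcr5, against 11.8% of those without, and 1.35% had an NKG2 receptor gene, against 15.1%. In thinned cells the Cxcr5 shares were 32.2% with Rgs16 and 6.81% without.

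The other genes of the family divided spleen cells as follows. Rgs1 had 183 CPM in spleen cells with Foxp3 and 59.5 CPM in the rest, a ratio of 3.07 (2.87 to 3.27), and 147 CPM in cells with Ifng and 66.8 CPM in the rest, a ratio of 2.20 (2.03 to 2.38). Rgs10 had 331 CPM with Cxcr5 and 195 CPM without, 310.3 CPM with Foxp3 and 203 CPM without, but 113 CPM with Ifng and 224 CPM without, where 3.71% of genes were lower, and 122 CPM with an NKG2 receptor gene and 232 CPM without, where 3.31% were lower. Rgs2 in Foxp3 cells, with a ratio of 1.54, and Rgs3 in Ifng cells, with a ratio of 1.91, were the others counted in these 4 kinds. In the 661 invariant spleen cells Rgs1, Rgs2 and Rgs3 were higher, with ratios of 2.99, 2.14 and 2.90, where 12.4% of genes were. Rgs10 was lower in them, at 46.6 CPM against 231 CPM in the rest, where 8.76% of genes were lower. Spleen had only 11 cells with Il17a, and their levels are not compared here.

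**Figure D3:**
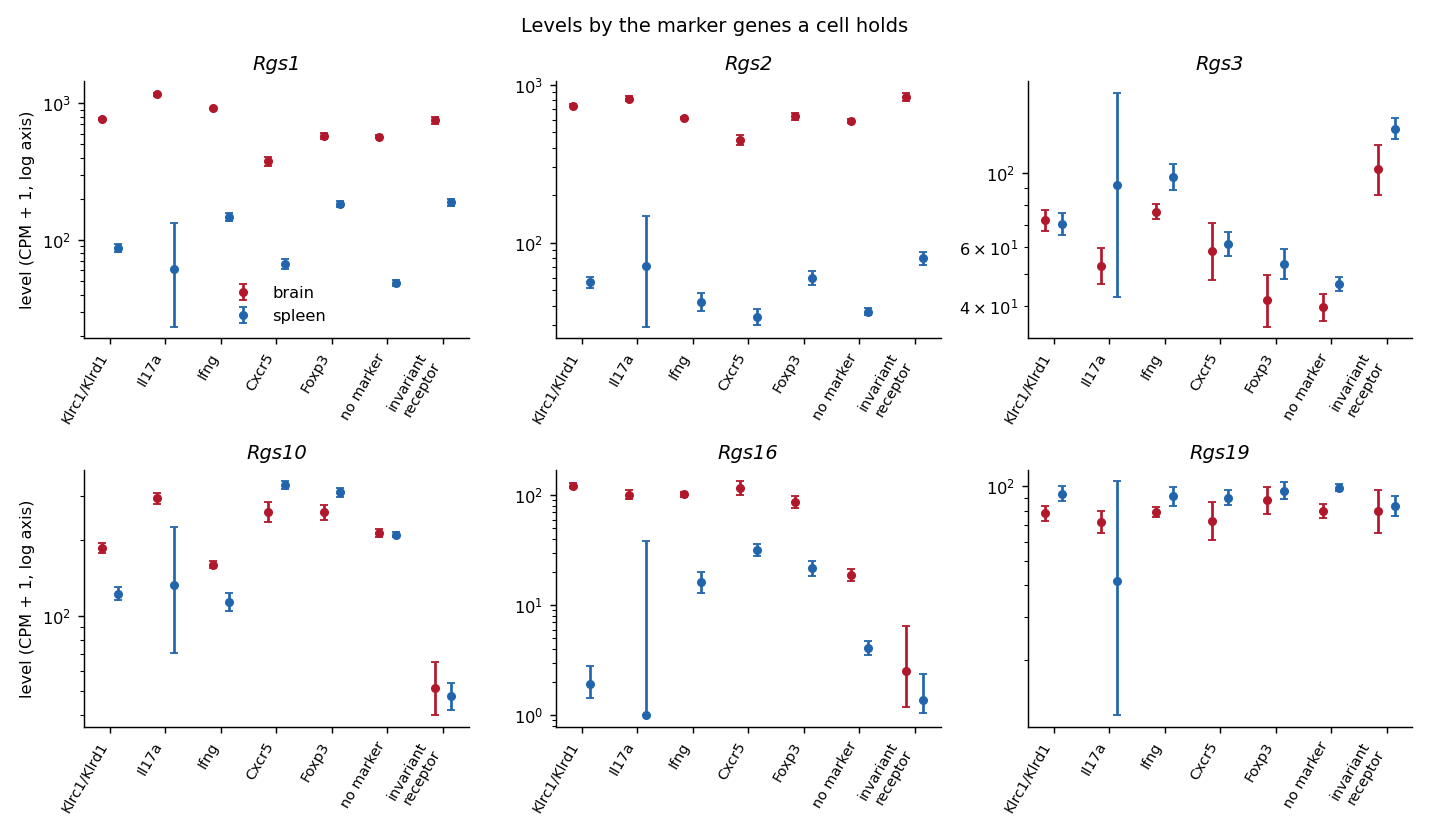
Level of each gene (CPM + 1, log axis) in brain and spleen cells grouped by the markers they hold, with 95% counting intervals. Rgs2 lay at 448 CPM or more in every brain kind shown and at 79.2 CPM or less in every spleen kind, whereas Rgs16 ran over a wide range in both tissues.

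Within every kind that both tissues held in number, Rgs1 and Rgs2 were higher in brain. For Rgs2 the ratio of brain to spleen was 13.4 (12.2 to 14.6) in cells with an NKG2 receptor gene, 14.9 (12.97 to 17.1) with Ifng, 13.5 (11.8 to 15.5) with Cxcr5, 10.7 (9.60 to 11.9) with Foxp3 and 16.5 (15.5 to 17.5) with no marker. For Rgs1 the ratios were 8.89, 6.24, 5.70, 3.14 and 11.99 in the same order. Without cells of the invariant receptor the Rgs1 ratio was 21.5 with an NKG2 receptor gene, and the Rgs2 ratio was 23.0 with Ifng. Invariant cells were 27.1% of the spleen cells with an NKG2 receptor gene and 28.0% of those with Ifng. In these 5 kinds 10.2%, 7.47%, 10.3%, 9.45% and 9.99% of all genes were higher in brain. Among invariant cells the ratio was 3.998 (3.66 to 4.37) for Rgs1 and 10.6 (9.46 to 11.9) for Rgs2. Rgs1 and Rgs2 were thus higher in brain in each of these kinds, and the tissue ratio of Rgs1 was smallest where its spleen level was highest, in Foxp3 and invariant cells.

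For Rgs16 the tissue ratio depended on the kind. It was 6.60 (5.25 to 8.40) with Ifng, 3.74 (3.10 to 4.51) with Cxcr5, 4.15 (3.36 to 5.13) with Foxp3 and 5.76 (4.54 to 7.33) with no marker. With an NKG2 receptor gene it was 128 (67.4 to 281), from 1332 UMIs in 902 brain cells and 9 UMIs in 1174 spleen cells. Invariant cells, which hold almost no Rgs16, made up 7.21% of that kind in brain and 27.1% in spleen. Without them the levels were 129 CPM in brain cells and 1.13 CPM in spleen cells, a ratio of 115 (58.0 to 266). The spleen level in that kind rests on a few UMIs, so the ratio has a wide interval, but its lower end lies above the intervals of the other 4 kinds. In invariant cells themselves Rgs16 had 2 UMIs in each tissue.

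Rgs10 was counted as higher in brain in 1 of these kinds, the cells with an NKG2 receptor gene, with 185 CPM in brain cells against 122 CPM in spleen cells, a ratio of 1.52 (1.42 to 1.64). Without invariant cells the levels were 195 CPM in brain cells and 154 CPM in spleen cells, a ratio of 1.27, so that call depended on them. Rgs3 and Rgs19 were in none of the 5 kinds past the bound, with Rgs3 ratios from 0.775 in Foxp3 cells to 1.03 with an NKG2 receptor gene.

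A clonotype is the set of cells of 1 tissue with the same paired receptor chains. Brain had 2124 clonotypes in 3119 cells, the largest of 67 cells, and spleen 6241 in 6731 cells, the largest of 60 cells. Over clonotypes of 1 cell, 2 to 4, 5 to 9, 10 to 24 and 25 or more cells, the brain level of Rgs1 was 652, 825, 868, 1025 and 1107 CPM. Rgs16 had 34.1, 80.3, 70.8, 253 and 92.6 CPM, Rgs3 45.2, 67.4, 64.4, 83.9 and 79.9 CPM, and Rgs2 612, 669, 759, 651 and 435 CPM. Rgs1, Rgs16 and Rgs3 were lowest in single cells, and Rgs2 was lowest in the class of 25 or more cells. That class held only 6 clones, which differed in Rgs2. Numbered by size, clones 1, 2 and 4 had 70.5, 310.2 and 167 CPM, while clones 3, 5 and 6 had 706, 812 and 1082 CPM. Without 1 clone of 19 cells, clone 8 below, the class of 10 to 24 cells had 836 CPM of Rgs1, under the class of 5 to 9, and 133 CPM of Rgs16. Rgs10 lay between 180 and 225 CPM and Rgs19 between 76.4 and 89.2 CPM over the 5 sizes.

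Brain cells of clonotypes of at least 5 cells, 723 cells of 64 clonotypes, were set against the 1834 cells of clonotypes of 1 cell. Rgs16 had 124 CPM in expanded and 34.1 CPM in single cells, a ratio of 3.63 (3.28 to 4.01), Rgs3 74.4 CPM in expanded and 45.2 CPM in single cells, a ratio of 1.65 (1.48 to 1.83), and Rgs1 986 CPM in expanded and 652 CPM in single cells, a ratio of 1.51 (1.47 to 1.56). These 3 genes were counted as higher, as were 5.22% of all genes. Without the clonotype that holds most Rgs16 the ratios were 2.72 for Rgs16 and 1.44 for Rgs1, and Rgs1 was no longer counted. It was not counted either with clonotypes of at least 2 cells, at 1.402, or with each clonotype weighted equally, at 1.46. Ifng was found in 64.2% of expanded and 33.8% of single cells, and an NKG2 receptor gene in 30.6% of expanded and 18.9% of single cells. Foxp3 was found in 0.277% of expanded and 8.89% of single cells, and the invariant receptor in 0% and 6.16%. Expanded and single cells thus also differed in kind. Median stress content was 17359 CPM in expanded and 15466 CPM in single cells, and its part in the ratios was not tested. Within cells with an NKG2 receptor gene Rgs16 had 222 CPM in expanded and 43.7 CPM in single cells, a ratio of 5.08 (4.28 to 6.06). Within cells of no marker it had 33.5 CPM in expanded and 12.2 CPM in single cells, a ratio of 2.74 (1.86 to 3.99). Without such a receptor gene it had 79.1 CPM in expanded and 31.6 CPM in single cells, a ratio of 2.50 (2.19 to 2.86). Clone 8, the clonotype with most Rgs16, had an NKG2 receptor gene in 57.9% of its 19 cells. These ratios within kinds include clone 8 and were not taken without it. Among single cells Rgs16 thus had 43.7 CPM with a receptor gene and 31.6 CPM without. These levels were closer together than the 121 and 47.9 CPM in all brain cells.

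Spleen had 213 cells of 23 expanded clonotypes and 5984 of single ones. Rgs16 was the only one of the 6 genes counted, with 38.3 CPM in expanded and 5.60 CPM in single cells, a ratio of 6.84 (5.06 to 9.12), where 14.5% of all genes were higher. With clonotypes of at least 10 cells the ratio was 0.912, from 3 UMIs, and with each clonotype weighted equally it was 11.1. Rgs1 had 91.2 CPM in expanded and 72.1 CPM in single spleen cells. Without invariant receptors Rgs1 and Rgs3 were counted too, at 1.56 and 1.59.

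The brain clones themselves differed widely. Among the 18 of at least 10 cells, Rgs16 ran from 0 to 1392 CPM with a median of 41.4 CPM. Clone 8, of 19 cells with a TRAV12N-2 and a TRBV20 chain, had 251 Rgs16 UMIs, 11.96% of those in all brain cells with a paired receptor. The 5 clonotypes with most Rgs16 made up 3.08% of the paired cells and held 33.0% of its UMIs. Clone 12 had 688 CPM, clone 13 531 CPM and clone 3 378 CPM, while clones 4, 7 and 15 had no Rgs16 UMI.

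Clones of much the same size or the same share of Ifng cells differed in Rgs16. Clone 1, the largest with 67 cells, had Ifng in 88.1% of its cells and 1 Rgs16 UMI, or 1.47 CPM. Clone 2, of 57 cells, had Ifng in 93.0% and 5.20 CPM of Rgs16. Clone 8, of 19 cells, had Ifng in 94.7% of its cells and 1392 CPM of Rgs16. Clone 9, of the same size, had Ifng in 42.1% and 68.9 CPM of Rgs16.

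Rgs1 was present throughout, from 426 CPM in clone 16 to 2828 CPM in clone 8 with a median of 940 CPM, and Rgs2 ran from 70.5 CPM in clone 1 to 1203 CPM in clone 8 with a median of 598 CPM. All 18 clones were above the level of all spleen cells for both genes. The largest clone thus combined 1041 CPM of Rgs1 with the lowest Rgs2 of the 18. Rgs3 ran from 32.6 to 176 CPM, Rgs10 from 56.9 to 344 CPM and Rgs19 from 27.8 to 138 CPM. Across the 18 clones, which share 1 library, Pearson's r of log2(CPM + 10) was 0.713 between Rgs16 and Rgs3, 0.620 between Rgs16 and Rgs2, 0.586 between Rgs16 and Rgs1, and 0.199 between Rgs1 and Rgs2.

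**Figure D4:**
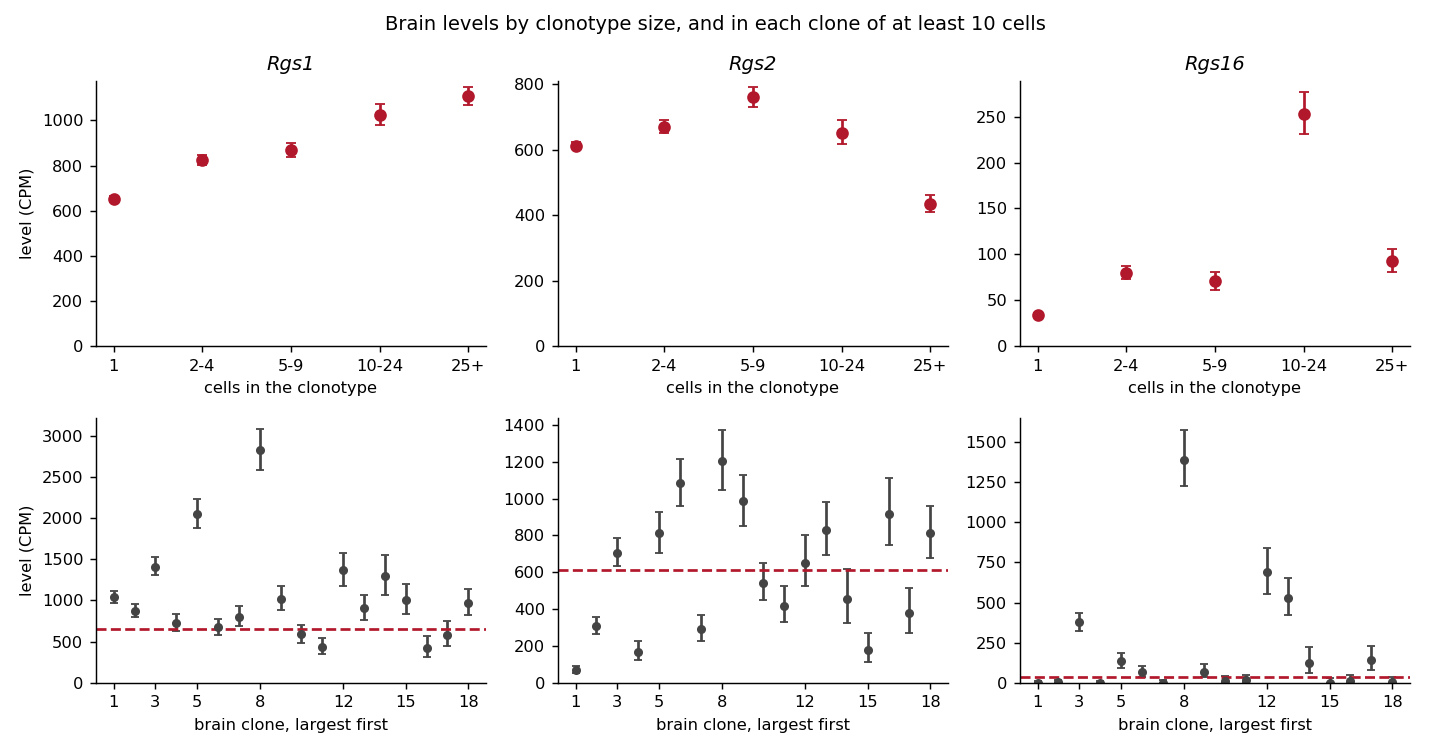
Level (CPM) of Rgs1, Rgs2 and Rgs16 by the number of cells in the brain clonotype (top) and in each of the 18 brain clones of at least 10 cells, largest first (bottom), where the dashed line is the level in clonotypes of 1 cell. Bars are 95% counting intervals; clone 8 has the highest point in each lower panel and clone 1 the lowest Rgs2, 70.5 CPM.

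The genes most like each member across those 18 clones were named by the highest r among 3334 genes of at least 50 CPM. For Rgs16 they were Trps1 (0.887), the inhibitory receptor gene Pdcd1 (0.854), Akap13 (0.846) and Crlf2 (0.845). For Rgs1 they were St13 (0.880), the transcription factor gene Maf (0.837), Eea1 (0.761) and Itm2c (0.729), and for Rgs2 the inhibitory receptor gene Ctla4 (0.837), Acot7 (0.801), Sik1 (0.777) and Gnb2 (0.758). For Rgs3 they were Jarid2 (0.796), the T cell receptor complex gene Cd3e (0.778), Capn7 (0.773) and Btg1 (0.770), for Rgs10 Tmem176b (0.848), Cpd (0.844), Mgat5 (0.830) and Pgam1 (0.824), and for Rgs19 Synrg (0.799), Ndufa5 (0.781), Ccdc85b (0.751) and Ddx39b (0.739). No gene was named for more than 1 of the 6. Picked as the highest of 3334 values over 18 clones, these are a description and carry no test.

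Cells of 1 clonotype could be compared between tissues in the 17 clonotypes that held 3 or more cells in each. Rgs1 was higher in brain in all 17, with a median log2 difference of 3.64 on the log2(CPM + 10) scale, and Rgs2 in 16, with a median of 3.07. Rgs10 was higher in brain in 14 of the 17, with a median of 1.52, although its level over all cells was slightly lower in brain. Of all genes of at least 10 CPM, 4.83% were higher in brain in 13 or more of the 17. A gene at 0 UMIs in both tissues of a clonotype cannot count there, so genes of low level can lower that share. The share among genes as high as Rgs1, Rgs2 and Rgs10 was not taken. Rgs3, Rgs16 and Rgs19 were higher in brain in 7 each, with medians of 0, 0 and -0.17. Rgs3 was lower in brain in 8, Rgs16 in 2 and Rgs19 in 10. The other 8 clonotypes had no Rgs16 UMI in either tissue.

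The largest shared clonotype had 57 brain cells and 60 spleen cells, and is clone 2 above. Rgs1 had 875 CPM in its brain cells and 51.4 CPM in its spleen cells, Rgs2 310.2 CPM in brain cells and 29.3 CPM in spleen cells, and Rgs10 166 CPM in brain cells and 51.4 CPM in spleen cells. Rgs16 had 5.20 CPM in its brain cells and no UMI in its spleen cells. Most of the other 16 shared clonotypes had fewer than 10 cells in each tissue, so each single value is coarse. None of the 17 had the invariant receptor.

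**Figure D5:**
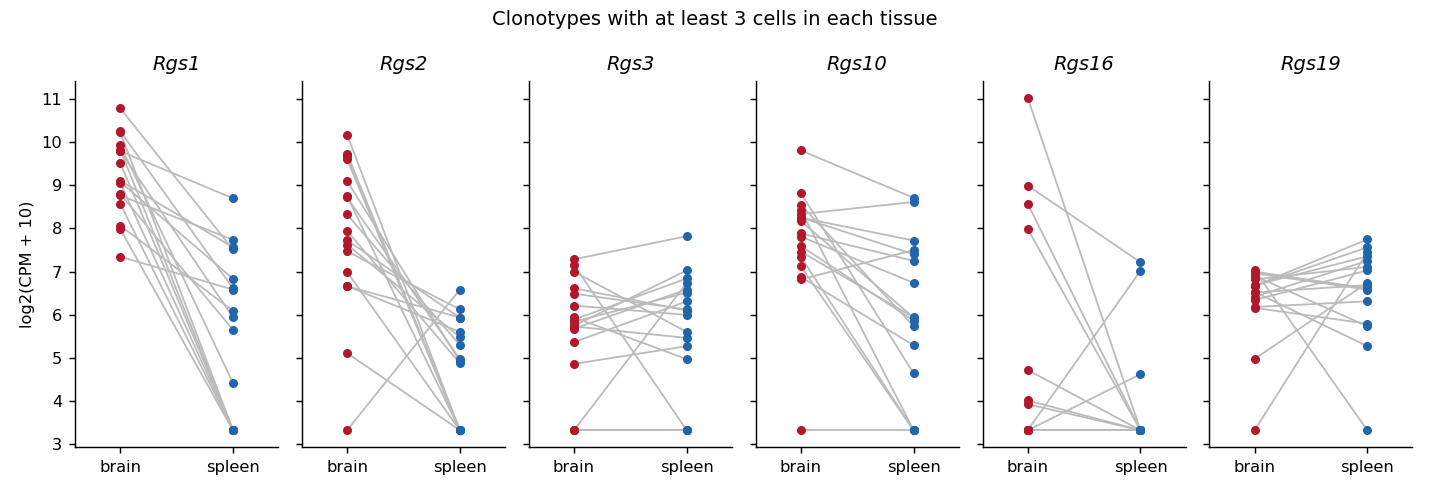
Level of each gene, as log2(CPM + 10), in the brain and the spleen cells of the 17 shared clonotypes, those of 3 or more cells in brain and in spleen, with a line for each. All 17 lines of Rgs1, 16 of Rgs2 and 14 of Rgs10 are higher at brain, and 8 clonotypes lie at 0 CPM in both tissues for Rgs16.

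The wider signalling lists hold 102 genes, of which 65 reached 10 CPM. Of these, 18 were higher and 8 lower in brain, with a median log2 ratio of 0.08, against -0.09 over all 8636 genes. Over all genes 9.78% were higher and 8.68% lower. The lists were written with earlier results of these data known, so their counts are descriptions. Among the 15 other Rgs genes listed, Rgs14, which also binds Gi subunits, was the only one measured, with 60.4 CPM in brain cells against 74.98 CPM in spleen cells. Of 8 G protein alpha genes Gna13 was higher with 345 CPM in brain cells against 96.7 CPM in spleen cells, a ratio of 3.57, and Gna15 had a ratio of 1.62. Gnai2, the main Gi subunit gene of lymphocytes, had 563 CPM in brain and 623 CPM in spleen. Of 7 beta and gamma genes Gng2 was higher with a ratio of 1.59 and Gng12 lower with 0.506.

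Of 27 receptor genes measured, 13 were higher and 6 lower in brain, against 9.78% higher and 8.68% lower of all genes. Ccr8, a chemokine receptor gene, had 85.1 CPM in brain cells, against 7.75 CPM in spleen cells, for a ratio of 10.98, and Ltb4r1, a receptor gene for leukotriene B4, had 41.7 CPM in brain and 8.93 CPM in spleen. Ptger4, a receptor gene for prostaglandin E2, had a ratio of 2.39. Ccr7 was lower, with 119 CPM in brain cells against 324 CPM in spleen cells, as were Ccr9, Cxcr5 and Gpr18, with ratios of 0.211, 0.212 and 0.420. None of the 6 measured genes for receptor kinases and arrestins was counted, nor any of 3 further modulators. Of 13 effector genes Pde4d and Pde4b, for enzymes that break down cyclic AMP, were higher with ratios of 2.75 and 2.49, and Plcb2 was lower with 0.619.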

How the data were processed

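The deposited matrices hold counts, whole UMIs per gene and barcode, and the deposited receptor tables give read and UMI counts per contig. The authors made them with Cell Ranger 9.0.0, per the submitters' processing notes, which name 4 genome builds with no role, so the build is not settled here. Brain held 4277 barcodes and 44386447 UMIs, spleen 8707 barcodes and 65191435 UMIs. Barcodes with at least 500 genes, 1000 UMIs and at most 10% mitochondrial UMIs were kept (4143 in brain, 8474 in spleen). Barcodes with more than 1 productive TRB or 2 TRA chains were then left out as doublets (179 in brain, 315 in spleen), and no other doublet caller was run. Barcodes with UMIs of at least 3 of 6 B cell genes (4 in brain, 167 in spleen) or 3 of 8 myeloid genes (26 in brain, 5 in spleen) were left out next. The plan was to leave out such cells by cluster, but no brain cluster separated myeloid cells. UMIs were summed over cells and given as CPM. Ratios have exact conditional binomial (Clopper-Pearson) intervals at 95%, levels exact Poisson intervals. A fold against a group at 0 would use a floor of 3 UMIs. The 6 genes, all gene lists and the alternatives were chosen with earlier results of these data known. The named genes are the 6, the marker genes, up to 4 genes at each end of each signalling list, and the 4 genes of highest r with each member over clones; 1 of them is not reported here. The invariant receptor, the neighbouring Rgs genes and 2 promoter motifs were chosen after values or sequences had been seen. The fold counts were checked on simulated data. Python 3.11.15 with numpy 2.4.6, pandas 2.3.3, scipy 1.17.1 and matplotlib 3.10.9 was used, and R 4.3.3 with edgeR 4.0.16 for the TMM alternative only.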

Additional observations from a re-analysis of the deposited data

Results flagged for a closer look

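Rgs10 had a ratio of 1.60 in brain cells with Il17a over brain cells without, and of 0.612 in spleen cells with Il17a over spleen cells without. The opposite directions drew attention to it. The difference was not tested, and the spleen value rests on 13 UMIs in 11 cells with an interval of 0.326 to 1.05.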

How the results depend on the processing

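No analysis of paired replicates was possible because each tissue had 1 library, and no replicate could be left out for the same reason. Tissues were paired only within the shared clonotypes. Rgs1, Rgs2 and Rgs16 were the 3 genes counted as higher in brain under each alternative scaling, cell set, depth and minimum run for the tissue comparison, with ratios of 6.23 to 12.3, 6.03 to 16.5 and 5.76 to 8.74. Narrower groups of cells in the report went outside these ranges, such as 4.53 for Rgs2 at or below the spleen median of stress content, 1.74 for Rgs16 above the 95th percentile and 3.14 for Rgs1 in Foxp3 cells. Of the alternative values for counts and shares, 84 stayed close to the reported value and 12 did not. Of the alternatives, 5 were added after the data were seen: cells of no marker, cells with at least 4 of 6 T cell genes, and cells without shared barcodes, without brain clone 8 or without invariant receptors. With no minimum level, 28 signalling genes were higher in brain. In cells with an NKG2 receptor gene the count was 2 with at least 2 UMIs of the marker, against cells of no marker, and in thinned cells. In thinned cells it was 1 for Ifng and 0 for Cxcr5. At low stress content it was 2 for Cxcr5, and against cells of no marker it was 1 for Foxp3. Without invariant receptors, 3 genes were counted in expanded spleen cells. In the 4 clonotypes that held 5 or more cells in each tissue, Rgs2 was higher in brain in 100%, Rgs10 in 100% and Rgs3 in 75%. The Rgs16 ratio of expanded spleen cells was 0.912 with clonotypes of at least 10 cells. The causes were not tested. Of the alternative ratios of single genes, 211 stayed within the interval of the reported ratio and 112 left it. The remaining 1, of Rgs16 in expanded spleen cells, went from counted as higher to below 1. Some ratios of genes that were not counted crossed 1 as well. Rgs3 between tissues went from 1.08 to 0.846 in cells of no marker, and Rgs16 in Foxp3 cells from 1.30 to 0.762 at low stress content. Without the barcodes that both libraries held, the tissue ratio of Rgs16 was 8.39. The spleen level of Rgs16 rests on 485 UMIs.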
